A study of Rattus norvegicus with 9 samples.

Results

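In RNA from isolated pancreatic islets, 8 T cell marker genes were followed: Cd3d, Cd3e, Cd3g, Il7r, Cd2, Cd5, Cd8a and Lck. They were chosen as the probe sets whose gene symbol in the platform annotation was one of these 8 names, which gave 12 of the 31042 non-control probe sets on the array and 8 of 14217 named genes. A gene was represented by its brightest probe set, the one with the highest mean log2 signal over all arrays. Of the 8 genes, 7 had a probe set bright enough to be tested, among 20695 probe sets in all, and Cd5 did not.

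The islets came from male Zucker Diabetic Fatty (fa/fa) rats, an obese and diabetic strain with a defective leptin receptor, all fed the Purina 5008 diet. Rosiglitazone, a thiazolidinedione drug that activates PPAR gamma, was mixed into the food at 3 mg per kg of body weight. Treated rats received it from week 5 to week 9 and were sampled at 9 weeks of age. Withdrawal rats received it over the same weeks, were then kept off it for 2 weeks and were sampled at 11 weeks. Untreated rats were sampled at 13 weeks. Each group had 3 arrays, labelled as biological replicates, out of a study of 24 animals. The labels do not settle whether an array holds RNA of 1 animal or of several, so SDs, SEs and p-values measure the spread between these arrays, which may understate that between animals. Since each group had its own age, age and treatment cannot be told apart. All values are log2 signals of Affymetrix Rat Genome 230 2.0 arrays, and all differences are log2 differences.

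T cells recognise antigen through a receptor whose signalling part is the CD3 complex. Cd3d, Cd3e and Cd3g encode its delta, epsilon and gamma chains, which pair with each other and carry the signal into the cell. Lck is the Src family kinase that phosphorylates these chains, and Cd8a encodes the alpha chain of the coreceptor that brings Lck to them on cytotoxic T cells. Cd2 is an adhesion receptor, Cd5 an inhibitory receptor, and Il7r the alpha chain of the receptor for interleukin 7, a survival signal of resting T cells. Islet endocrine cells are not known to make these transcripts, which are read in islets as markers of resident or infiltrating lymphocytes. In whole islet preparations, fewer cells of a type and less RNA per cell cannot be told apart.

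Hormone genes were among the brightest on these islet arrays. Ins1, an insulin gene, was at 14.21 ± 0.06 (SD, n = 3) in treated, 14.11 ± 0.04 in withdrawal and 14.18 ± 0.04 in untreated islets. Acinar enzyme genes were also bright, with a list mean between 13.8 and 14.0 on all 9 arrays, so exocrine transcripts were present in every preparation. The deposited values were not equally spread between arrays, with standard deviations over probe sets from 1.65 to 2.00, widest on treated array 1. Each result is therefore given with the values as deposited and, where stated, after quantile normalization. Between treated and untreated arrays the median of all tested probe sets was 0.16 as deposited and 0.02 after quantile normalization. Between withdrawal and treated arrays it was -0.19 and -0.03.

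Il7r, Cd3e and Cd3g were lower in treated than in untreated islets, and these 3 genes and Cd8a were higher after withdrawal than under treatment. The largest differences among the 7 tested genes were those of Il7r, 1.86-fold lower under treatment than in untreated islets and 2.11-fold higher after withdrawal than under treatment. Cd3d, Cd2 and Lck passed the threshold, an adjusted p under 0.05 in limma over all tested probe sets, in no comparison. None of the 7 tested genes differed detectably between withdrawal and untreated islets.

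Il7r (probe set 1382566_at) read 5.84, 5.35 and 5.88 on the treated arrays, 6.67, 6.83 and 6.80 on the withdrawal arrays and 6.48, 6.82 and 6.46 on the untreated arrays. All treated arrays lay below all others, while withdrawal and untreated arrays overlapped. The treated minus untreated difference was -0.90 ± 0.16 (SE), with a 95% interval from -1.25 to -0.55 (adjusted p = 0.00387). After withdrawal it was 1.08 ± 0.16 above the treated level, with an interval from 0.73 to 1.43 (adjusted p = 0.000994). This gene, which encodes the interleukin 7 receptor, passed in both comparisons in each of the 9 fits that left out 1 array.

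Cd3e (1379791_at) read 5.91, 5.62 and 6.17 on the treated arrays, 6.68, 7.03 and 6.60 on the withdrawal arrays and 6.52, 6.88 and 6.50 on the untreated arrays. Again every treated array was below every other array, and the other groups overlapped. The epsilon chain transcript differed by -0.74 ± 0.17 between treated and untreated islets, with an interval from -1.12 to -0.36 (adjusted p = 0.0115). Without untreated array 2, its highest untreated value, this difference was -0.62 and did not pass (adjusted p = 0.0606). The withdrawal minus treated difference was 0.88 ± 0.17, from 0.50 to 1.26 (adjusted p = 0.00287), and passed in all 9 such fits.

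Cd3g (1384787_at) read 5.28, 5.15 and 5.07 on the treated arrays, 5.93, 5.88 and 5.78 on the withdrawal arrays and 5.68, 5.61 and 5.69 on the untreated arrays. The 3 groups did not overlap at all for this gene, with withdrawal highest, untreated next and treated lowest. The gamma chain transcript differed by -0.495 ± 0.11 between treated and untreated islets, from -0.74 to -0.25 (adjusted p = 0.0106). It was 0.69 ± 0.11 higher after withdrawal than under treatment, from 0.44 to 0.94 (adjusted p = 0.0014). Both differences passed in all 9 fits without 1 array. The step from untreated to withdrawal, 0.20 with an interval from -0.05 to 0.45, did not pass (adjusted p = 0.772).

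**Figure D1:**
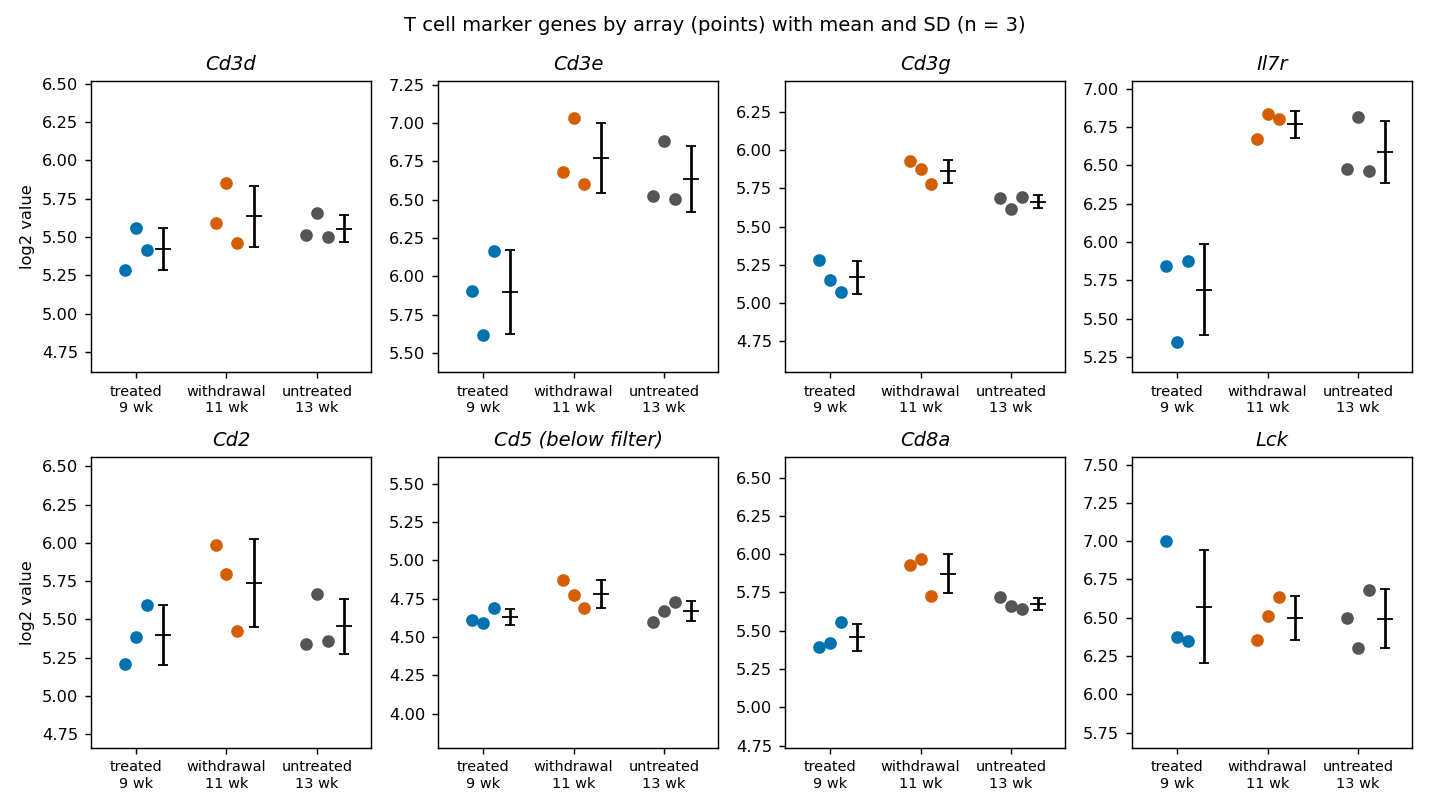
Log2 signal of the T cell marker genes on each of the 9 arrays, by group (3 arrays each), with 1 point per array and the group mean as a line. For Il7r, Cd3e, Cd3g and Cd8a every treated array lies below every withdrawal and untreated array, while the groups overlap for Cd3d, Cd2, Cd5 and Lck.

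The 3 genes that differed in both comparisons with treated islets are shown by the sequence upstream of their start sites. Each sequence holds the 250 bases before the RefSeq start of the gene in assembly GRCr8, 5′ to 3′ on the gene's strand. All 3 genes lie on the minus strand. The windows are chr2:60204918-60205167 for Il7r, chr8:54211771-54212020 for Cd3e and chr8:54183919-54184168 for Cd3g. Capitals mark matches, on either strand, to the core letters of transcription factor families known from T cells. Runt family factors (RUNX) were searched by TGTGGT, which 14.5% of 33469 RefSeq promoters of the same length hold. ETS family factors were searched by GGAAGT, held by 19.2% of those promoters. The E-box of helix-loop-helix factors was searched by CAGCTG, held by 12% of them. Zinc finger factors of the GATA family were searched by AGATAA, held by 10.3%. The T cell factor and lymphoid enhancer pair (TCF/LEF) was searched by CTTTGA, held by 13.9%.
Il7r: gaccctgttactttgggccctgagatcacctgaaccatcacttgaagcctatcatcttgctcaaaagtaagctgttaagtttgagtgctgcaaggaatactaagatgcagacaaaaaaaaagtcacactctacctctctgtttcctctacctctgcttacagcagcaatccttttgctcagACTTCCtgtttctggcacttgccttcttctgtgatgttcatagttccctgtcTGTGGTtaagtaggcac
Cd3e: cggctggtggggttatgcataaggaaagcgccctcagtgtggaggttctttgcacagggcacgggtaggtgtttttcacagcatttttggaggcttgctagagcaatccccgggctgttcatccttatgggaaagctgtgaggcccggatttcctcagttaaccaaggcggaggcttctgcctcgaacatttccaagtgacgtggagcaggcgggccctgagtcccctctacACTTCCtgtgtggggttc
Cd3g: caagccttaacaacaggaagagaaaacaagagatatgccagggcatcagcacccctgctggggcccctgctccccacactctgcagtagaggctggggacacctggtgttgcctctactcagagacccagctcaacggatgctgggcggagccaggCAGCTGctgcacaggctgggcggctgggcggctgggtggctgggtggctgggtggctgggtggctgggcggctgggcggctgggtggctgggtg
The Il7r window held the RUNX letters, starting 17 bases before the gene's start, and the ETS letters at 69 bases. The Cd3e window held the ETS letters alone, at 18 bases, and that of Cd3g the E-box letters alone, at 94 bases. No motif was thus shared by all 3. Over the windows of all 8 genes, 9 in number since Lck has 2 starts, the ETS letters were found for 5 genes, Cd3d, Cd3e, Il7r, Cd5 and Lck. The RUNX letters were found for Il7r, Cd2 and Lck, the E-box for Cd3g, Cd2 and Cd5, the TCF/LEF letters for Cd3d alone and the GATA letters for none. Genes that moved and genes that did not thus both carried ETS and RUNX letters. A match is a description of letters and not a binding site.

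Cd3d is the neighbour of Cd3g on chromosome 8, read in the opposite direction, and its protein is a partner of Cd3e. Its probe set 1387472_at read 5.28, 5.56 and 5.42 on treated, 5.59, 5.85 and 5.46 on withdrawal and 5.51, 5.66 and 5.50 on untreated arrays. The groups overlapped in every comparison. The treated minus untreated difference was -0.13 ± 0.14, with an interval from -0.43 to 0.16, and the withdrawal minus treated difference was 0.21, from -0.08 to 0.51 (adjusted p = 0.471 and 0.218). The differences between Cd3d and the other CD3 chains were not themselves tested.

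Cd8a (1395116_at) read 5.39, 5.42 and 5.56 on treated, 5.93, 5.97 and 5.73 on withdrawal and 5.72, 5.66 and 5.64 on untreated arrays. The 3 groups did not overlap, in the same order as for Cd3g. The coreceptor transcript was 0.42 ± 0.12 higher after withdrawal than under treatment, from 0.16 to 0.67 (adjusted p = 0.0147). This call was lost without withdrawal array 1 (adjusted p = 0.0577) and without withdrawal array 2 (adjusted p = 0.0719). The treated minus untreated difference of -0.22 ± 0.12, from -0.47 to 0.04, did not pass (adjusted p = 0.182).

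Cd2 (1369190_at), the adhesion receptor, read 5.21, 5.39 and 5.598 on treated, 5.99, 5.796 and 5.42 on withdrawal and 5.34, 5.66 and 5.36 on untreated arrays. The groups overlapped, since withdrawal array 3 lay within the range of the treated arrays. Its withdrawal minus treated difference was 0.34, from -0.03 to 0.71 (adjusted p = 0.12), and among the 9 fits without 1 array passed only without that one (adjusted p = 0.0388).

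Lck (1383320_at), the kinase, read 6.998, 6.37 and 6.35 on treated, 6.35, 6.51 and 6.64 on withdrawal and 6.50, 6.30 and 6.68 on untreated arrays. The highest value belonged to treated array 1, and the groups overlapped. The treated minus untreated difference was 0.08 ± 0.18, from -0.31 to 0.47, and turned to -0.02 after quantile normalization. The withdrawal minus treated difference was -0.07, from -0.47 to 0.32, and turned to 0.04 on that scale (adjusted p = 0.759 and 0.767 as deposited).

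Cd5 (1369025_at), the inhibitory receptor, read 4.61, 4.59 and 4.69 on treated, 4.87, 4.77 and 4.69 on withdrawal and 4.599, 4.67 and 4.73 on untreated arrays. All lay below 4.95, the lowest mean among the tested probe sets, and the 3 groups overlapped. In a fit without the brightness filter, its differences were -0.04 for treated minus untreated (adjusted p = 0.83) and 0.15 for withdrawal minus treated (adjusted p = 0.285). The other probe sets of Cd3e, Il7r and Cd8a were also below the filter and passed in no comparison of that fit. The second Cd8a probe set (1385414_at) read 4.64, 4.68 and 4.69 on treated and 4.99, 4.88 and 4.88 on withdrawal arrays, without overlap. The third (1369877_at) read 4.12, 3.81 and 3.76 on treated, 3.91, 4.19 and 3.91 on withdrawal and 3.54, 3.75 and 3.63 on untreated arrays. Its treated arrays lay above the untreated ones without overlap, opposite to the tested set, with a difference of 0.25 that did not pass (adjusted p = 0.19). The second sets of Cd3e (1389997_at) and Il7r (1386052_at) read between 3.60 and 3.94 and between 2.82 and 3.46. The dim Il7r set had the signs of the tested one, at -0.10 for treated minus untreated and 0.31 for withdrawal minus treated. The dim Cd3e set was at 0.04 and 0.12 in these comparisons.

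Read against the array as a whole, 3 of the 7 tested genes were called lower in treated than in untreated islets, where 7.24% of all tested probe sets were lower, 20.9% were higher and 28.1% were called in either direction. After quantile normalization the same 3 genes were called, against 9.44% lower, 7.75% higher and 17.2% in either direction. Withdrawal against treatment called 4 of 7 higher, against 11.2% higher, 32.6% lower and 43.8% in either direction as deposited. The same 4 were called after quantile normalization, against 14.5% higher, 14.6% lower and 29.1% in either direction. Limma's F test across the 3 groups called Il7r, Cd3g, Cd3e and Cd8a (adjusted p = 0.00183, 0.0031, 0.00577 and 0.0412), where it called 37% of all probe sets. On the quantile scale it called 24.5%, and Cd8a did not pass (adjusted p = 0.0617). In all 7 genes the withdrawal mean was above the untreated mean as deposited, by 0.01 to 0.28, and none of these differences passed (adjusted p from 0.772 to 0.997). Of all tested probe sets, 55.5% had a withdrawal mean below the untreated one. The smallest of the differences, that of Lck, changed sign under some alternatives given below.

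No tested gene of the 7 had an unadjusted p under 0.05 in the withdrawal against untreated comparison, where 1553 probe sets did. Limma called 0.159% of all probe sets there after adjustment, 0.42% after quantile normalization, and none of the 7 genes on either scale. The intervals show what could have been missed: Cd2 at 0.28 from -0.09 to 0.65, Il7r at 0.18 from -0.17 to 0.53, Cd8a at 0.20 from -0.06 to 0.46 and Cd3e at 0.14 from -0.24 to 0.52. Treated arrays lay below untreated arrays without overlap for 4 of 7 genes, against 11.7% of all probe sets. Withdrawal lay above treated without overlap for 4 of 7, against 14.9%, and above untreated for 2 of 7, Cd3g and Cd8a, against 7.65%.

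The median difference over the 7 genes was -0.22 between treated and untreated islets, 0.42 between withdrawal and treated islets and 0.18 between withdrawal and untreated islets, each as first minus second. Over all tested probe sets these medians were 0.16, -0.19 and -0.02. Among the 6179 probe sets as bright as the 7 genes, with means from 5.53 to 6.52, they were 0.04, -0.03 and 0.02. In that range 9.87% were called lower in treated than untreated islets and 15.6% higher after withdrawal than under treatment. These comparisons share their arrays, so their values are given side by side only.

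**Figure D2:**
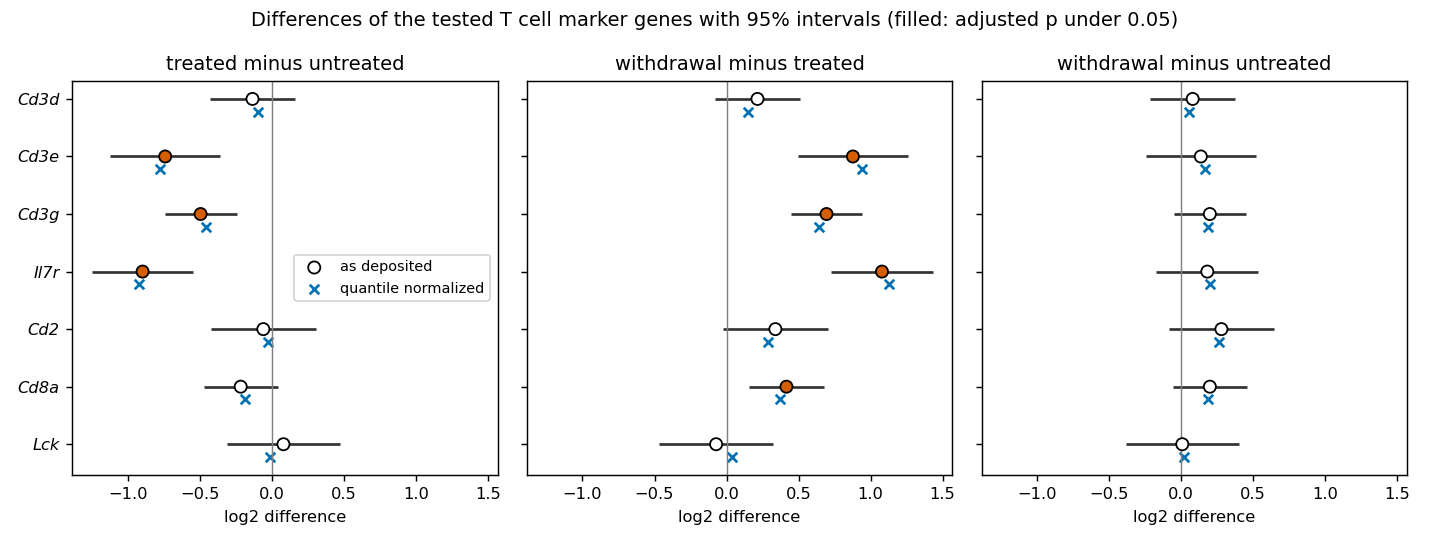
Log2 differences of the 7 tested T cell marker genes in the 3 comparisons, with 95% intervals of the values as deposited (circles, filled where the adjusted p was under 0.05) and the difference after quantile normalization (crosses). Il7r, Cd3e and Cd3g lie left of 0 between treated and untreated islets and, with Cd8a, right of 0 between withdrawal and treated islets, and all intervals of withdrawal minus untreated include 0.

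Other genes of T cell receptor signalling and T cell identity mostly had the direction of the markers where they passed the test. Of 38 listed genes 29 were on the array and 17 were tested. Between treated and untreated islets 4 of the 17 were lower and 0 higher, where 7.24% of all probe sets were lower and 20.9% higher. After withdrawal 7 were higher and 1 lower than under treatment, where 11.2% of all were higher and 32.6% lower. On the quantile scale 5 were lower and 1 higher in treated than in untreated islets, where 9.44% of all probe sets were lower and 7.75% higher. The higher one was Vav1, an exchange factor downstream of the receptor (0.44, adjusted p = 0.0341). After withdrawal 8 were higher and 0 lower on that scale, where 14.5% of all were higher and 14.6% lower. Cd247, which encodes the zeta chain of the same receptor complex, read 5.997, 5.64 and 6.07 on treated, 7.14, 7.33 and 7.33 on withdrawal and 6.75, 7.18 and 6.85 on untreated arrays. The treated arrays were lowest without overlap. It fell by 1.02 under treatment relative to untreated islets (SE 0.15, adjusted p = 0.002) and rose by 1.36 after withdrawal (adjusted p = 0.000513), in all 9 fits without 1 array.

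Lcp2, the adaptor SLP-76 downstream of the receptor, was at 5.68 ± 0.24 in treated, 6.60 ± 0.17 in withdrawal and 6.29 ± 0.04 in untreated islets (SD, n = 3). It differed by -0.61 between treated and untreated islets (adjusted p = 0.0115, lost without untreated array 2) and by 0.92 between withdrawal and treated islets (adjusted p = 0.00119). Prkcq, protein kinase C theta, differed by -0.43 (adjusted p = 0.027, lost without treated array 3, untreated array 1 or untreated array 2) and by 0.55 (adjusted p = 0.00543). Fyb1, an adaptor partner of SLP-76, was at 7.82 ± 0.76, 8.32 ± 0.09 and 9.44 ± 0.33 in the same order of groups. The treated minus untreated difference was -1.62 (adjusted p = 0.00433), and its withdrawal level was not detectably above the treated one (0.49, adjusted p = 0.198), a call that was gained without treated array 1. After quantile normalization the withdrawal minus treated difference of Fyb1 passed (0.93, adjusted p = 0.0136).

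Cd4, the coreceptor of helper T cells that macrophages of the rat also carry, was 0.48 higher after withdrawal than under treatment (adjusted p = 0.00813) and differed by -0.05 between treated and untreated islets (adjusted p = 0.776). Skap1 (0.73), Bcl11b (0.56) and Runx3 (0.42), an adaptor and a pair of T cell transcription factors, were also higher after withdrawal (adjusted p = 0.00666, 0.0149 and 0.0281). Cd4 and Skap1 passed in all 9 fits without 1 array, Bcl11b in 7, failing without withdrawal array 1 or 2, and Runx3 in 4. The 1 gene called lower was S1pr1, a receptor for lymphocyte exit that endothelium carries too, at -0.62 (adjusted p = 0.0442). It passed in 4 of the 9 fits without 1 array and not after quantile normalization. Zap70, the kinase that binds phosphorylated CD3 chains, was 0.29 higher in treated than untreated islets without passing (adjusted p = 0.101). Cd8b, the partner chain of Cd8a, differed by -0.23 and 0.35 in the 2 comparisons with treated islets and passed in neither (adjusted p = 0.384 and 0.153).

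The partners of the interleukin 7 receptor differed in direction among themselves. Of 14 listed genes 10 were tested, and 2 were higher and 0 lower in treated than in untreated islets, a share near the 20.9% of all probe sets. After withdrawal 1 was higher and 2 were lower than under treatment, where 11.2% of all were higher and 32.6% lower. On the quantile scale 1 was higher and 1 lower in treated than in untreated islets, shares near the 7.75% higher and 9.44% lower of all probe sets. The lower one was Crlf2, a related cytokine receptor chain (-0.58, adjusted p = 0.00508). After withdrawal 3 were higher and 1 lower on that scale, where 14.5% of all were higher and 14.6% lower. Jak3, the kinase bound to the common gamma chain, read 7.80, 7.72 and 7.87 on treated, 7.52, 7.46 and 7.50 on withdrawal and 7.05, 7.24 and 7.19 on untreated arrays. The 3 groups did not overlap as deposited, with treated highest. The treated minus untreated difference was 0.64 (adjusted p = 0.00359) and 0.39 after quantile normalization (adjusted p = 0.0429). The withdrawal minus treated difference was -0.30 (adjusted p = 0.0472) and turned to 0.03 after quantile normalization (adjusted p = 0.869). Jak1, bound to Il7r itself, was 0.43 higher in treated than in untreated islets (adjusted p = 0.0423) and turned to -0.10 after quantile normalization, where it was 0.34 higher after withdrawal than under treatment (adjusted p = 0.0223). Il2rg, the common gamma chain, was 0.56 higher after withdrawal than under treatment (adjusted p = 0.0465), and Stat5b, a transcription factor of this pathway, differed by -0.39 (adjusted p = 0.0171, lost without withdrawal array 2). Jak1 passed in 2 of the 9 fits without 1 array and Il2rg in 1, without treated array 1. Il7, the ligand, passed in no comparison, with 0.09 between treated and untreated islets (adjusted p = 0.662).

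Of 14 listed ligands, coreceptors and Lck regulators 11 were tested. In treated against untreated islets 1 was higher and 0 lower, where 20.9% of all probe sets were higher and 7.24% lower. After withdrawal 0 were higher and 1 was lower than under treatment, where 11.2% of all were higher and 32.6% lower. Both calls were of Unc119, an activator of Lck, at 0.51 (adjusted p = 0.0118, lost without untreated array 2) and -0.34 (adjusted p = 0.0407, held in 2 of the 9 fits without 1 array). Csk, the kinase that inhibits Lck, and Cd48, the rodent ligand of Cd2, passed in no comparison as deposited. The counts turned with the scaling, as did the shares over all probe sets. After quantile normalization 3 genes were higher and 0 lower after withdrawal than under treatment, where 14.5% of all were higher and 14.6% lower. In treated against untreated islets 1 was higher and 1 lower, shares near the 7.75% and 9.44% of all. The lower one was B2m, the light chain of class I molecules (-0.55, adjusted p = 0.0381).

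Markers of other lymphocytes that passed had the direction of the T cell markers. Of 11 tested cytotoxic and natural killer cell genes, 1 was lower in treated than in untreated islets, a share near the 7.24% of all probe sets, and 4 were higher after withdrawal than under treatment, where 11.2% of all were. Klrk1, an activating receptor of such cells, rose by 0.83 after withdrawal (adjusted p = 0.00163). Of 5 tested B cell genes, 4 were lower in treated than in untreated islets and 4 were higher after withdrawal. Fcrla, an Fc receptor-like gene of B cells, differed by -0.76 and 0.90 (adjusted p = 0.00816 and 0.00196). Ms4a1, the CD20 antigen, differed by -0.58 and 0.61 (adjusted p = 0.0295 and 0.0155). Fcrla passed in both comparisons in all 9 fits without 1 array, while Ms4a1 failed without untreated array 1 or 2 in the first and without withdrawal array 1 in the second. The part of B and natural killer cells in the T cell marker result was not tested.

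The list means by array show the size of these shifts. The mean log2 of the 8 T cell markers was 5.43 to 5.59 on treated, 5.89 to 6.08 on withdrawal and 5.79 to 5.91 on untreated arrays, with treated arrays below all others. The B cell list (12 genes on the array) ran from 5.11 to 5.29, from 5.52 to 5.76 and from 5.43 to 5.71. The other T cell genes (29 on the array) ran from 5.11 to 5.22, from 5.37 to 5.41 and from 5.31 to 5.34. Pan-leukocyte genes overlapped between the groups, since treated array 1 was at 7.38 and treated arrays 2 and 3 at 6.29 and 6.70, against 6.99 to 7.05 on withdrawal and 6.69 to 6.78 on untreated arrays. Macrophage genes did likewise, at 8.11, 6.55 and 7.28 on treated, 7.63 to 7.85 on withdrawal and 7.09 to 7.30 on untreated arrays. The mean of the 8 T cell markers on treated array 1 was 5.565, between the 5.43 and 5.59 of the other treated arrays, with Lck and Cd3g highest there among the treated arrays.

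Without treated array 1, all 13 tested macrophage genes were higher after withdrawal than under treatment, against 2 with it, and 7 of 12 pan-leukocyte genes, against 0. That fit called 14.1% of all probe sets higher. After quantile normalization of all 9 arrays, 7 macrophage and 3 pan-leukocyte genes were higher, where 14.5% of all probe sets were. Il7r, Cd3e and Cd3g were called in both comparisons also without that array. Aif1, a macrophage gene, differed by -0.55 between treated and untreated islets and was 0.72 higher after withdrawal than under treatment (adjusted p = 0.0187, lost without untreated array 2, and 0.00301). Of 15 tested genes of lymphoid tissue and lymphocyte homing, 2 were lower in treated than in untreated islets, where 7.24% of all probe sets were. They were Cxcl9 (-0.43, adjusted p = 0.0272) and Ccl21 (-0.63, adjusted p = 0.0433), both chemokines for T cells. These calls held in 5 and 3 of the 9 fits without 1 array. After withdrawal 3 genes of this list were higher and 1 was lower than under treatment, where 11.2% of all were higher and 32.6% lower. The lower one, Ltbr, the lymphotoxin beta receptor (-0.52, adjusted p = 0.0444), passed in 2 of those 9 fits and turned to 0.13 after quantile normalization. Ccl21 rose by 1.11 and Cxcl9 by 0.70 (adjusted p = 0.00225 and 0.00192), in all 9 such fits.

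Islet endocrine genes were brightest on the treated arrays as deposited, with list means of 12.5 to 12.7 on treated, 11.7 to 11.9 on withdrawal and 11.9 to 12.2 on untreated arrays. Their median treated minus untreated difference was 0.42 as deposited and 0.15 after quantile normalization. For withdrawal minus treated it was -0.76 and -0.30. As deposited 4 of the 9 tested were higher in treated than in untreated islets, where 20.9% of all probe sets were. Ins1, Ins2 and Iapp passed in no comparison. Genes of unrelated organs, which islets should lack, had medians of the same sign as the T cell markers. Their mean (16 genes on the array) was 4.51 to 4.81 on treated, 4.91 to 4.94 on withdrawal and 4.76 to 4.94 on untreated arrays. Of the 6 that were tested, 0 passed between treated and untreated islets (median -0.14), against 28.1% of all probe sets. After withdrawal 3 were higher than under treatment (median over the 6 of 0.31), against 11.2% of all probe sets. Crygd, a lens crystallin, was one of them, at 0.73 (adjusted p = 0.0144, lost without withdrawal array 1). After quantile normalization 2 of the 6 were higher, where 14.5% of all probe sets were. Without treated array 1 it was 1 of the 6, where 14.1% were. Of the T cell markers 4 of 7 were higher in both of these fits. The part of dim signal as such, and of the islet share of the RNA, in the T cell marker result was not tested.

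**Figure D3:**
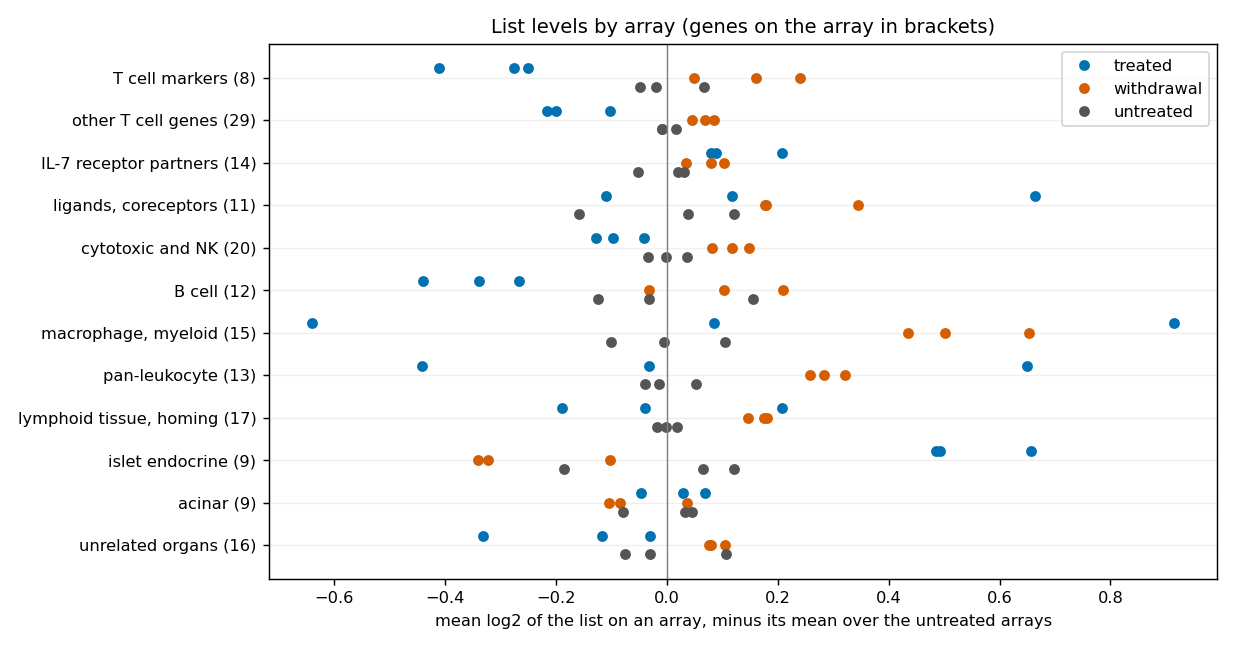
Mean log2 of each gene list on each array, minus the list's mean over the untreated arrays, with the number of genes on the array in brackets and 1 point per array. The T cell marker, other T cell, cytotoxic and natural killer, and B cell lists lie lowest on the treated arrays. Macrophage and pan-leukocyte genes spread widely between treated arrays. Genes of unrelated organs also lie lower on the treated than on the withdrawal arrays.

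The genes whose pattern was most like the 7 markers were found by the Pearson correlation, over the 9 arrays, with the mean log2 of the 7 genes among 11389 other genes. The 10 highest were Ighl2 (0.990), Lcp2 (0.987), Bbox1 (0.985), Atp6v1g2 (0.984), Adamts12 (0.978), Bcl11a (0.977), Cnga2 (0.976), Arpp21 (0.974), Reln (0.972) and Adrb3 (0.971). The points share arrays, group differences and array scaling, so these values are descriptive. After quantile normalization 6 of the 10 were again among the 10 highest. Ighl2 was at 6.10 ± 0.20 in treated, 7.05 ± 0.27 in withdrawal and 6.85 ± 0.19 in untreated islets. Lcp2 is the adaptor described above, and Bcl11a is a transcription factor of B lymphocytes and neurons. The others include genes known from other tissues, such as Cnga2, an olfactory channel subunit, Reln, a matrix protein of brain, and Adrb3, an adrenergic receptor of fat.

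**Figure D4:**
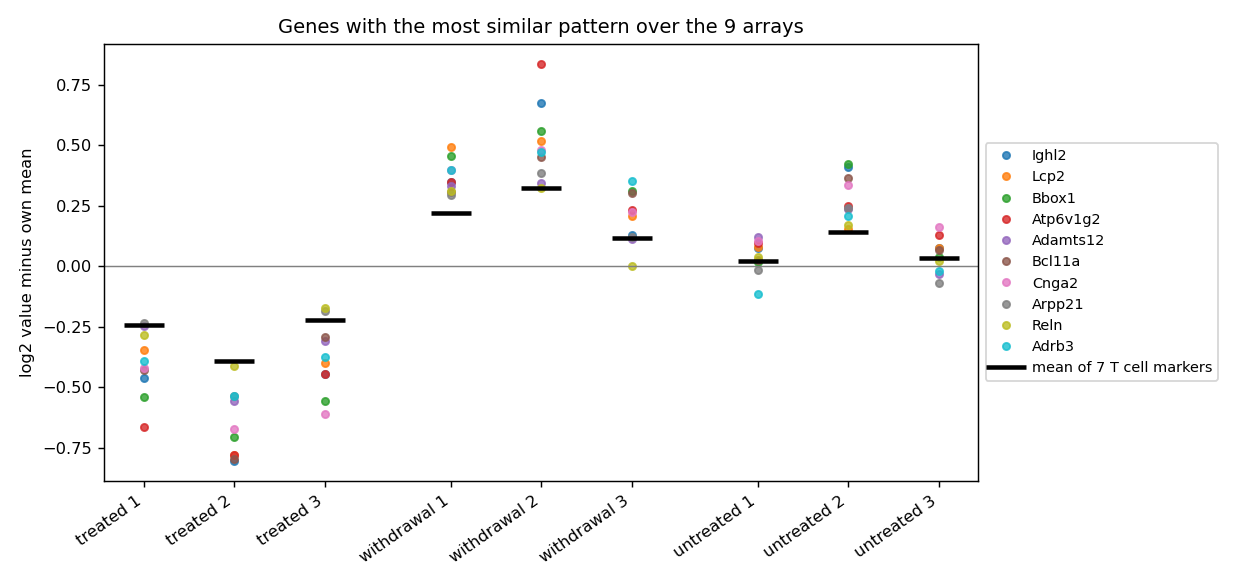
Log2 value minus own mean, on each of the 9 arrays, of the mean of the 7 tested T cell markers and of the genes with the most similar pattern. All lie lowest on the treated arrays and higher on withdrawal and untreated arrays, with correlations of 0.971 to 0.990.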

How the data were processed

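RNA of isolated islets was measured on 9 arrays, 3 in each of 3 groups. The authors deposited 1 table of log2 values per probe set. The submitters' processing notes name RMA and MAS5, whose roles and versions are not given in the sources used here. That the scale is log2 was taken from the range of the values. Array number, not read depth, limits the precision. The 57 control probe sets were left out. Gene names came from the platform annotation, updated through the RefSeq gene table of GRCr8. A single symbol was held by 20826 of 31042 probe sets; the 436 with more than 1 symbol and the 9780 with none were left unnamed.

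The lowest 33.3% of probe sets by mean were left out. A model with 1 mean per group was fitted to all 9 arrays by lmFit and eBayes of limma 3.58.1 (R 4.3.3), Benjamini-Hochberg adjusted over 20695 probe sets, with a threshold of 0.05. The fit was tested on simulated data. Plots used matplotlib 3.10.9 under Python 3.11.15. The T cell marker genes, the gene lists and the tests were chosen with earlier results of these data known. Named genes were all 8 markers, up to 4 genes of each list with the smallest F test p, and the 10 genes with the highest correlation. Further list members are named to account for counts and were chosen after their values were seen.

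Alternatives covered the scaling (quantile normalization, median centring), the filter (none, or the lowest 50% removed) and the fit (trended robust eBayes, array weights, 2 groups alone, a block for the replicate number). They also covered omission of single arrays, averaging of a gene's probe sets and a minimum difference of 1. Quantile normalization without treated array 1 was added after seeing the data.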

Additional observations from a re-analysis of the deposited data

How the results depend on the processing

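Il7r, Cd3e and Cd3g kept their direction in both comparisons with treated islets under every alternative in which they were tested. With each array left out in turn, 2 to 3 of the 7 genes were called between treated and untreated islets, 3 to 5 between withdrawal and treated, 0 between withdrawal and untreated, and 3 to 4 by the F test. With the lowest 50% of probe sets left out, only Cd3e and Il7r were tested with Lck, so 2 genes were called between withdrawal and treated islets and 2 by the F test, and the medians became -0.74 for treated minus untreated and 0.88 for withdrawal minus treated. Averaging the probe sets of each gene, dim ones included, called 1 gene, Cd3g, in each of treated against untreated, withdrawal against treated and the F test. The filter was then applied to the averaged values, and Il7r, Cd3e and Cd8a fell below it. They were thus not tested in that run and did not fail in it. The medians over the genes still tested were 0.080 (withdrawal minus untreated) and 0.21 (withdrawal minus treated). A minimum log2 difference of 1 called 0 genes between treated and untreated and 1, Il7r, between withdrawal and treated islets. Array weights called 1 gene, Cd2, between withdrawal and untreated islets (0.40, adjusted p = 0.0348), and the cause was not tested. Lck turned to -0.016 (quantile), -0.157 (array weights) and -0.156 (quantile without treated array 1) for treated minus untreated, to 0.0385, 0.0909 and 0.178 for withdrawal minus treated, and to -0.0163 (median centring) and -0.0662 (array weights) for withdrawal minus untreated. Cd2 turned to 0.145 (array weights) and 0.0525 (quantile without treated array 1) for treated minus untreated. With each array left out, Lck ran from -0.13 to 0.19 (treated minus untreated), from -0.18 to 0.14 (withdrawal minus treated) and from -0.0889 to 0.103 (withdrawal minus untreated), Cd2 from -0.16 to 0.0443 (treated minus untreated) and Cd3d from -0.0291 to 0.17 (withdrawal minus untreated). Whether the replicate numbers pair the samples was not settled. Of 9 correlations between same-number arrays of different groups, taken on deviations from group means, 5 were over 0.1, from -0.28 to 0.50. Of 18 between arrays of other numbers, 5 were over 0.1, from -0.48 to 0.41. With the replicate block 3, 0 and 4 genes were called in treated against untreated, withdrawal against untreated and withdrawal against treated, and 3 by the F test. Offsets before taking logarithms were not run, since the values are already log2. With 3 arrays a group, a gene that was not called may still differ by an amount within its interval.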
